A study of Arabidopsis thaliana with 42 samples.

Results

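The 9 genes described here are shade and growth regulators of Arabidopsis thaliana: the homeodomain-leucine zipper class II (HD-ZIP II) genes HB-2 (AT4G16780), HB4 (AT2G44910), HAT1 (AT4G17460), HAT2 (AT5G47370) and HAT3 (AT3G60390), and the helix-loop-helix (HLH) genes PIL1 (AT2G46970), HFR1 (AT1G02340), PAR1 (AT2G42870) and PAR2 (AT3G58850). They were taken by name, 9 of the 34262 features in the deposited RNA-seq table, and all 9 passed the filter on low values. The 12 libraries came from Col-0 seedlings 14 days old, collected at ZT-6, with 2 libraries in each of 6 groups: the double mutant arp6vil1 at 22 °C, arp6 at 22 °C, vil1 (allele vil1-1) at 27 and at 22 °C, and wild type (WT) at 27 and at 22 °C. VIL1 (symbol VRN5) is a partner of Polycomb repressive complex 2 with a PHD finger, while ARP6 belongs to SWR1, the remodeller that places the histone variant H2A.Z in chromatin. The labels give no allele for arp6 and do not say which day length was used for these plants. The other 30 of the 42 samples are ChIP-seq and are not analysed here.

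In sunlight, phytochrome photoreceptors hold back the phytochrome-interacting factors (PIFs). When leaf shade or warmth weakens that restraint, PIFs switch on growth genes, and with them a set of transcriptional regulators to which the 9 genes belong. HD-ZIP II proteins are transcriptional repressors that act in elongation, leaf shape and auxin response. HFR1, PAR1 and PAR2 are HLH proteins thought not to bind DNA themselves, and they hold back PIFs and other growth-promoting factors by pairing with them, while PIL1 is a PIF relative that also restrains shade growth.

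Levels are RPKM, reads scaled to gene length and library depth. Levels of different genes are set side by side on that scale. The length that fits the values is that of the annotated gene, and whether it counts introns was not checked. Rankings, shares and ratios between genes hold only for that length. Changes are differences of log2(RPKM + 1) with the standard error (SE) of a limma model over all 12 libraries, and a change was called at a Benjamini-Hochberg adjusted p under 0.05 over the 31454 genes tested. The added 1 makes such a change understate that of a low gene such as PIL1. The labels do not say that the 2 libraries of a group were grown apart, so the p-values speak of spread between libraries that may be technical. With 2 libraries against 2, an exact permutation test cannot give a p below 0.333, and none was run.

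Depth, recovered from the RPKM, was 52500000 to 102800000 reads a library. The RNA of ARP6 was at 0.798 and 0.715 RPKM in arp6vil1 and at 0.398 and 0.207 RPKM in arp6, against 12.1 to 14.4 RPKM in the other 8 libraries. The RNA of VRN5 was at 2.487 and 2.485 RPKM in arp6vil1, 8.69 and 8.10 RPKM in arp6 and 5.13 to 6.91 RPKM in vil1, against 6.67 to 8.71 RPKM in WT, so its level does not check the vil1 label. Both arp6 libraries stood apart, with 6651 and 6566 features listed at 0, against 104 to 194 in the other 10. Both arp6vil1 libraries stood apart in another way: the median protein-coding gene was at 1.94 and 1.79 RPKM, against 3.34 to 4.97 elsewhere, and chloroplast genes took 17.0% and 14.9% of summed RPKM, against 4.07% to 7.64%. The 3 shoot markers summed to between 14660 and 29487 RPKM in every library, the 3 root markers to 229 to 983 RPKM, and the 2 pollen and 2 seed storage markers to at most 2.52 and 5.14 RPKM, as the label of whole seedlings has it.

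HAT1 led the 9 genes in all 8 WT and vil1 libraries, and PIL1 was last in all 12. In WT at 22 °C the means ran from HAT1 at 31.5 ± 1.46 RPKM (SD, n = 2) through HAT3 at 20.4 ± 1.29, HFR1 at 18.6 ± 1.34, HB-2 at 17.0 ± 2.43, PAR1 at 13.0 ± 0.68, HAT2 at 11.96 ± 0.0089, PAR2 at 11.4 ± 1.22 and HB4 at 6.36 ± 0.28 down to PIL1 at 1.93 ± 0.015. Of neighbours in that order, the libraries of HAT3 and HFR1 overlapped, as did those of HFR1 and HB-2 and those of HAT2 and PAR2, and the rest were separate. The order was another one in the mutants of ARP6. HAT2 came first in arp6, at 9.94 ± 0.15 RPKM, ahead of HAT1 at 8.31 ± 0.0094. PAR2 came first in arp6vil1, at 17.9 ± 1.36 RPKM, ahead of HAT1 at 15.7 ± 1.03, while HB-2 was next to last there at 2.09 ± 0.039.

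**Figure D1:**
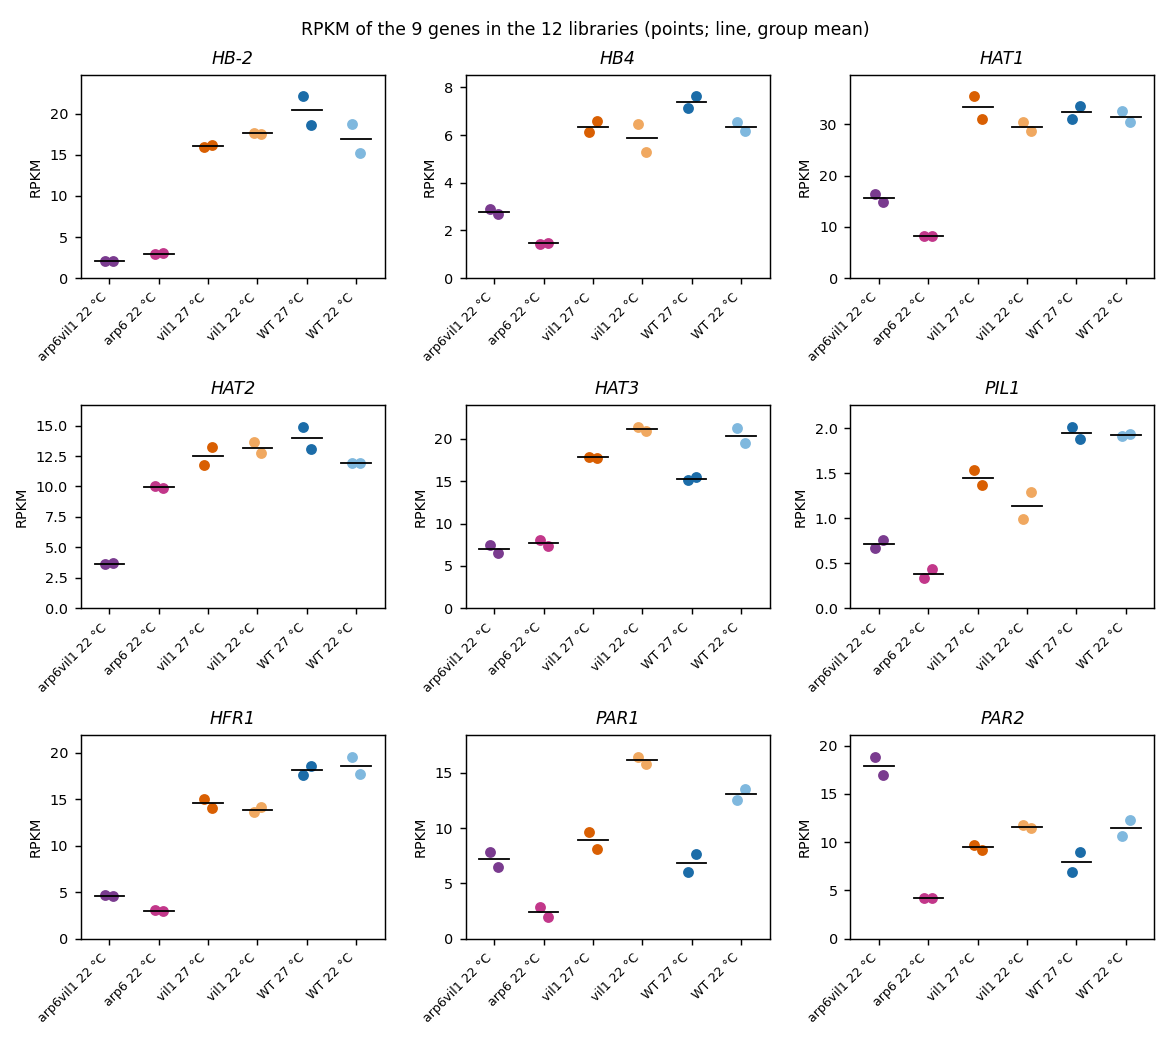
Each panel plots 1 gene, with RPKM on the vertical axis from 0 and the 6 groups along the horizontal axis. Points are the 2 libraries of a group and lines their mean. In 8 panels the points of arp6vil1 and arp6, on the left, lie below those of WT at 22 °C, while PAR2 in arp6vil1 (18.8 and 16.9 RPKM) stands above all its other libraries.

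At 27 °C, PAR1, PAR2 and HAT3 were lower than at 22 °C in WT, and none of the 9 genes passed the test upwards, beside 16.9% of all genes tested. PAR1 had 5.98 and 7.61 RPKM in WT at 27 °C, against 12.6 and 13.5 RPKM in WT at 22 °C. Both warm libraries lay below both cool ones, a log2 change of -0.86 (SE 0.15, adjusted p = 0.00483). PAR2, the near relative of PAR1, had 6.850 and 9.001 RPKM at 27 °C, against 10.6 and 12.3 RPKM at 22 °C. The 2 temperatures again did not overlap, and the change was -0.49 (SE 0.12, adjusted p = 0.0184). HAT3, which acts with HB4 in leaf and embryo patterning, had 15.2 and 15.5 RPKM at 27 °C, against 21.3 and 19.5 RPKM at 22 °C. It changed by -0.39 (SE 0.09, adjusted p = 0.0144), and its warm libraries too lay below the cool ones. In whole seedlings, fewer cells of a type and less RNA per cell cannot be told apart.

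Those 3 of 9 compare with 3.61% of the 31454 genes tested that were called lower in the same comparison, and with 7.5% of the 12070 nuclear coding genes whose mean RPKM was 5 or more. The median change over the 9 genes was 0.01, beside 0.09 over all genes tested and 0.17 over those 12070. Of the 12070, 0.969% had a change below that of PAR1, 4.53% below that of PAR2 and 7.04% below that of HAT3. The call of PAR2 was lost without replicate 1 of WT at 27 °C (-0.31, adjusted p = 0.137) and without replicate 2 of WT at 22 °C (adjusted p = 0.0951), and that of HAT3 without replicate 1 of WT at 27 °C (adjusted p = 0.0781). With the libraries of WT alone in the model, PAR1 was the only one of the 9 called.

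HB-2, a classic marker of shade response, had 22.12 and 18.69 RPKM in WT at 27 °C, against 18.71 and 15.27 RPKM at 22 °C. HB-2 was higher in replicate 1 than in replicate 2 at both temperatures. Its higher warm library stood out, the 2 temperatures overlapped, and the change of 0.25 (SE 0.11) had an adjusted p of 0.143. It passed only without replicate 1 of WT at 22 °C (0.39, adjusted p = 0.0312). HB4 and HAT2 had both warm libraries above both cool ones, with changes of 0.19 and 0.21 that also missed the threshold (adjusted p = 0.240 and 0.147). PAR1, PAR2 and HAT3 parted the other way, as given above. For WT, the share of all genes whose libraries part by temperature was not counted, so such parting has no background here. In that comparison 31.6% of all genes tested had an unadjusted limma p under 0.05. HAT1, PIL1 and HFR1 had overlapping libraries and changes between -0.04 and 0.04.

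In vil1, PAR1 alone of the 9 was called with temperature, beside 0.461% of all genes called lower and 1.94% called higher. PAR1 had 9.64 and 8.11 RPKM in vil1 at 27 °C, against 16.5 and 15.8 RPKM in vil1 at 22 °C, a change of -0.80 (SE 0.15, adjusted p = 0.0220). The 2 temperatures were well apart, but the call was lost without any 1 of the 4 vil1 libraries, when the adjusted p lay between 0.0818 and 0.185. HAT3 and PAR2 also had both warm libraries below both cool ones in vil1, by -0.24 and -0.27, and did not pass (adjusted p = 0.229 and 0.299). So did HB-2, at 16.0 and 16.2 against 17.6 and 17.6 RPKM (-0.12, adjusted p = 0.616). HAT1 and PIL1 parted the other way, HAT1 at 35.5 and 31.2 against 30.4 and 28.7 RPKM (0.16, adjusted p = 0.418). How many of all genes part by temperature in vil1 was not counted. An unadjusted limma p under 0.05 was found for 16.7% of them and 3 of the 9. PIL1 had 1.53 and 1.36 RPKM in vil1 at 27 °C, against 0.987 and 1.29 RPKM at 22 °C, with an adjusted p of 0.443.

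The response to 27 °C was then compared between vil1 and WT, the comparison that bears on whether VIL1 is needed for it. For none of the 9 did the vil1 response differ from the WT response at the threshold, with adjusted p between 0.386 and 0.955. No gene of the 31454 passed (0%), although 3880 of them (12.3%) and 1 of the 9 had an unadjusted p under 0.05, and limma's voom on reads recovered from the RPKM called 7 genes, none of the 9. Without replicate 1 of WT at 22 °C, 556 genes were called higher and 1256 lower, again none of the 9. The differences nearest to a change were those of HB-2, -0.38 (SE 0.16), and HAT2, -0.28 (SE 0.13), whose WT libraries had the higher values at 27 °C. For PAR1 the difference was 0.06 (SE 0.21). Averaged over both genotypes, a contrast added after these values were seen, PAR1 changed by -0.83 (SE 0.11, adjusted p = 0.000725), PAR2 by -0.38 (SE 0.09, adjusted p = 0.0115) and HAT3 by -0.31 (SE 0.06, adjusted p = 0.00762). Those 3 of 9 stand beside 3.44% of all genes called lower in that average, and PAR2 missed the threshold without replicate 1 of vil1 at 22 °C (adjusted p = 0.0508). For all 3, the 4 warm libraries of WT and vil1 together lay below the 4 cool ones: 5.98 to 9.64 against 12.6 to 16.5 RPKM for PAR1, 6.85 to 9.68 against 10.6 to 12.3 RPKM for PAR2, and 15.2 to 17.9 against 19.5 to 21.5 RPKM for HAT3. How many of all genes part in this way was not counted, while 34.3% had an unadjusted limma p under 0.05 in that average.

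Other measures moved with temperature too. The 3 shoot markers summed to 14660 to 15264 RPKM in WT at 27 °C, against 28523 to 29487 RPKM at 22 °C. The 3 root markers summed to 747 to 923 RPKM at 27 °C, against 253 to 405 RPKM at 22 °C. PYK10 was nearly all of that root sum (917 and 744 against 401 and 244 RPKM). The root markers SHV2 and EXPA7 overlapped between the 2 temperatures. Over genes of mean RPKM 5 or more, the WT change rose with gene length (Spearman's rho 0.470, across genes, which are not independent replicates), and PAR1 and PAR2 are the shortest of the 9, at 1203 and 1041 bp, where the median tested gene has 1885 bp. With that trend removed, all 3 calls in WT held. The part of the markers in the result was not tested.

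**Figure D2:**
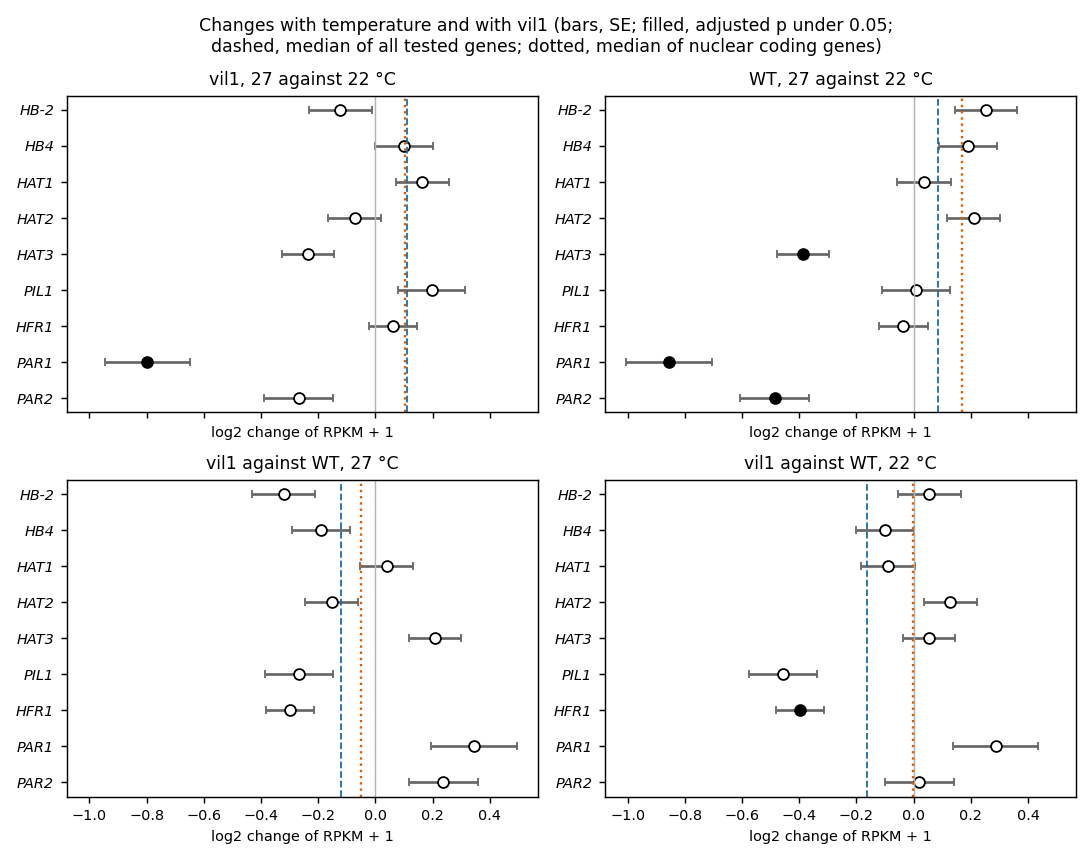
Each panel plots the log2 change of RPKM + 1 of the 9 genes along the horizontal axis, with SE bars, for 27 against 22 °C (upper panels) and vil1 against WT (lower panels). Filled points passed the test. PAR1 lies farthest left in both upper panels (-0.80 in vil1 and -0.86 in WT), and HFR1 in the lower right panel is the 1 filled point of the lower row.

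Between vil1 and WT the differences among the 9 were small, and in the HLH genes HFR1 and PIL1 all vil1 libraries lay below all WT libraries. The share of all genes that part in this way was not counted. Averaged over the 2 temperatures, 34% of all genes had an unadjusted limma p under 0.05 between vil1 and WT. HFR1, which blocks PIFs from DNA, had 13.6 and 14.2 RPKM in vil1 at 22 °C, against 19.6 and 17.7 RPKM in WT at 22 °C, and 15.0 and 14.0 RPKM in vil1 at 27 °C, against 17.6 and 18.6 RPKM in WT at 27 °C. All 4 vil1 libraries (13.6 to 15.0 RPKM) lay below all 4 WT libraries (17.6 to 19.6 RPKM). The change was -0.40 at 22 °C (SE 0.08, adjusted p = 0.0392) and -0.30 at 27 °C (SE 0.08, adjusted p = 0.162). PIL1 had 0.987 and 1.29 RPKM in vil1 at 22 °C, against 1.92 and 1.94 RPKM in WT at 22 °C, and 1.53 and 1.36 RPKM in vil1 at 27 °C, against 2.02 and 1.87 RPKM in WT at 27 °C. Its 4 vil1 libraries (0.987 to 1.53 RPKM) too lay below its 4 WT libraries (1.87 to 2.02 RPKM), with changes of -0.46 (SE 0.12, adjusted p = 0.0559) and -0.27 (SE 0.12, adjusted p = 0.338).

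HFR1 at 22 °C was thus the 1 call of 9 there, beside 1.95% of all genes called lower and 2.15% called higher. It was lost in 14 of 23 alternative settings, among them median centring, the libraries of the 2 groups alone, the WT and vil1 libraries alone, and the model without either vil1 library of 22 °C, with adjusted p up to 0.200. The shoot markers summed to 24015 to 25312 RPKM in vil1 at 22 °C, against 28523 to 29487 RPKM in WT at 22 °C. The root markers summed to 416 to 438 RPKM in vil1, against 253 to 405 RPKM in WT, and neither sum overlapped. Single markers did not all follow. CAB1 and CAB2 were lower in vil1, while RBCS1A was higher (5247 and 5134 against 4376 and 4160 RPKM). PYK10 was nearly all of the root sum. SHV2 (1.13 and 1.10 against 1.39 and 1.68 RPKM) and EXPA7 (1.68 and 2.28 against 2.85 and 7.04 RPKM) were lower in vil1. The part of these markers in the result was not tested. At 27 °C 0 of 9 were called by limma, beside 0.922% of all genes called in either direction. There 5 of the 9 had an unadjusted p under 0.05, as did 14.4% of all genes, and voom also called 0 of 9. Averaged over the 2 temperatures, HFR1 was lower in vil1 by -0.35 (SE 0.06, adjusted p = 0.0120) and PIL1 by -0.36 (SE 0.08, adjusted p = 0.0358), beside 4.45% of all genes called lower. That background depended on single libraries and on scaling: 1400 genes were called lower and 659 higher, against 7869 and 2101 without replicate 1 of WT at 22 °C and 513 and 1602 with median centring. The call of PIL1 was lost in 17 of 22 settings and that of HFR1 in 4 of 23, in which no direction turned. PAR1 lay on the other side, at 16.5 and 15.8 RPKM in vil1 at 22 °C against 12.6 and 13.5 RPKM in WT, and at 9.64 and 8.11 RPKM in vil1 at 27 °C against 5.98 and 7.61 RPKM in WT. Each vil1 pair was above its WT pair, and the average of 0.32 (SE 0.11) did not pass (adjusted p = 0.0833). At 22 °C alone PAR1 was called higher with the length trend removed (0.52, adjusted p = 0.0398) and in no other setting. The 5 HD-ZIP II genes had changes between -0.10 and 0.13 at 22 °C and between -0.32 (HB-2) and 0.21 (HAT3) at 27 °C, none of them called.

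In arp6 all 9 genes were lower than in WT at 22 °C, 8 of them by a factor of 2.65 to 6.19, and HAT2 by a factor of 1.20. HFR1 had 3.03 and 2.98 RPKM in arp6, against 19.6 and 17.7 RPKM in WT, a 6.19-fold lower mean (log2 change -2.29, SE 0.08, adjusted p = 2.55e-08). HB-2 had 2.88 and 3.12 RPKM in arp6, against 18.7 and 15.3 RPKM in WT, 5.66-fold lower (-2.16, SE 0.11, adjusted p = 1.71e-07). PAR1 had 2.82 and 1.97 RPKM in arp6, against 12.6 and 13.5 RPKM in WT, 5.45-fold lower (-2.06, SE 0.15, adjusted p = 1.29e-06). In these 3 genes every arp6 library was far below every WT library. PIL1 had 0.340 and 0.432 RPKM in arp6, against 1.92 and 1.94 RPKM in WT, means of 0.386 and 1.93 RPKM, with a log2 change of -1.08 (SE 0.12, adjusted p = 1.57e-05). HB4 had 1.43 and 1.49 RPKM in arp6, against 6.56 and 6.16 RPKM in WT (-1.58, SE 0.10), and HAT1 had 8.30 and 8.32 RPKM in arp6, against 32.6 and 30.5 RPKM in WT (-1.80, SE 0.09). For both, the 2 arp6 libraries were close to each other and far from those of WT.

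HAT3 and PAR2 fell less. HAT3 had 8.06 and 7.33 RPKM in arp6, against 21.3 and 19.5 RPKM in WT (-1.30, SE 0.09), and PAR2 had 4.16 and 4.23 RPKM in arp6, against 10.6 and 12.3 RPKM in WT (-1.26, SE 0.12). Their adjusted p, like those of HB4 and HAT1, were at most 6.85e-06. HAT2, an HD-ZIP II gene known as auxin-inducible, had 10.04 and 9.84 RPKM in arp6, against 11.96 and 11.95 RPKM in WT. The 2 groups were separate but close, with a change of -0.24 (SE 0.09, adjusted p = 0.0299), and this direction depended on the scaling: it was 0.13 with median centring (adjusted p = 0.321) and 0.39 with the length trend removed (adjusted p = 0.0151). The call was also lost without any 1 of the 4 libraries (adjusted p between 0.0633 and 0.107).

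These 9 of 9 stand beside a background in which 61.8% of all genes tested were called lower in arp6, and 43.5% of the 12070 nuclear coding genes. The median change was -1.58 over the 9, beside -0.64 over all genes tested and -0.10 over the 12070. Of the 12070, 1.94% changed below HFR1, 2.40% below HB-2, 2.74% below PAR1, 4.15% below HAT1, 5.96% below HB4, 9.45% below HAT3, 10.1% below PAR2, 14.0% below PIL1 and 44.1% below HAT2. HAT2 thus lay near the middle of that distribution and the other 8 genes in its lower part. PIL1 had no detectable change under quantile normalization (-0.01, adjusted p = 0.955), and the change of PAR2 shrank to -0.32 with the length trend removed (adjusted p = 0.00796). The 3 root markers summed to 869 to 983 RPKM in arp6, against 253 to 405 RPKM in WT at 22 °C. The 3 shoot markers summed to 15316 to 16024 RPKM, against 28523 to 29487 RPKM. PYK10 was nearly all of the root sum, SHV2 was higher in arp6 (2.04 and 1.74 against 1.39 and 1.68 RPKM) and EXPA7 overlapped. Of the shoot markers, CAB1 and CAB2 were lower in arp6 and RBCS1A overlapped. The part of these markers in the result was not tested. The features listed at 0 in arp6 included pollen markers and none of the 9 genes, each of which had at least 45 reads in every library.

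**Figure D3:**
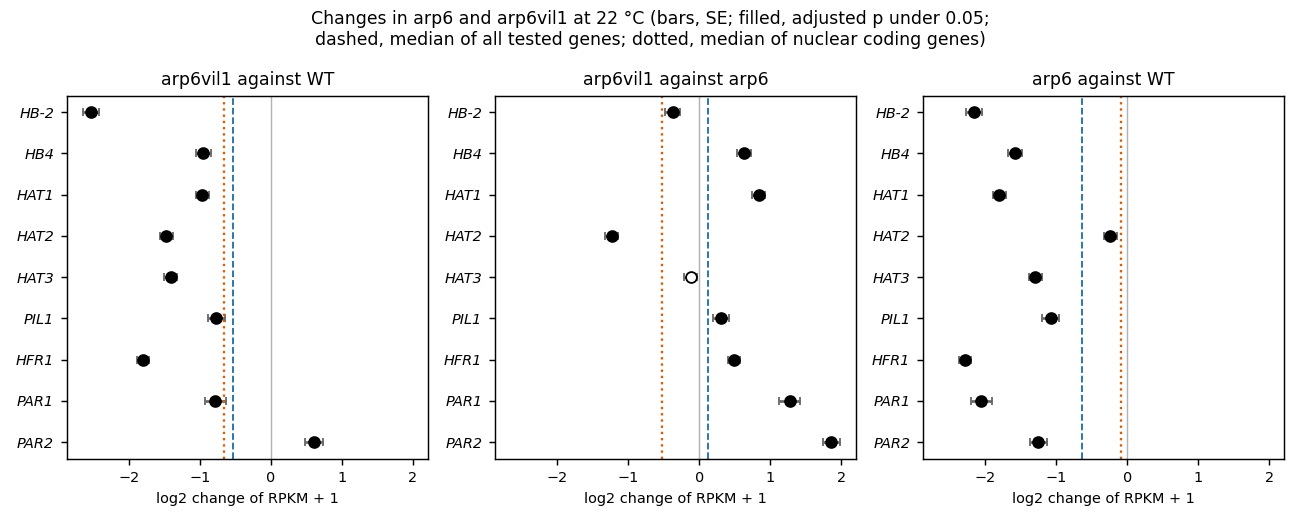
Log2 changes of RPKM + 1 with SE bars for the 9 genes at 22 °C, in arp6vil1 against WT (left), arp6vil1 against arp6 (middle) and arp6 against WT (right). Filled points passed the test, dashed lines mark the median of all genes tested and dotted lines that of the 12070 nuclear coding genes. HB-2 is farthest left against WT in arp6vil1 (-2.54), and PAR2 is the 1 gene right of 0 there (0.60).

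With vil1 added to arp6, the 9 genes parted. Over genes of mean RPKM 5 or more, the change against arp6 fell with gene length (Spearman's rho -0.515, across genes, not independent replicates). PAR2 and PAR1, with the largest rises of the 9, are also the shortest, at 1041 and 1203 bp. Their rises were called in every setting run, but were as low as 1.296 and 0.72. HAT1 and HAT2, close in length at 1717 and 1737 bp, changed in opposite directions. PAR2 had 18.8 and 16.9 RPKM in arp6vil1, against 4.16 and 4.23 RPKM in arp6, 10.6 and 12.3 RPKM in WT and 11.7 and 11.4 RPKM in vil1. It was above every other library, with a change of 1.86 against arp6 (SE 0.12, adjusted p = 2.30e-07), 0.60 against WT (SE 0.12, adjusted p = 0.00117) and 0.58 against vil1 (SE 0.12, adjusted p = 0.00154). PAR1 had 7.85 and 6.51 RPKM in arp6vil1, against 2.82 and 1.97 RPKM in arp6 and 12.6 and 13.5 RPKM in WT. Its arp6vil1 libraries lay between those of arp6 and WT, 1.28 above arp6 (SE 0.15, adjusted p = 2.07e-05) and -0.78 against WT (SE 0.15, adjusted p = 0.000827). HAT1, with 16.4 and 14.9 RPKM, and HB4, with 2.88 and 2.71 RPKM, lay between arp6 and WT in the same way, at 0.84 and 0.63 above arp6 and at -0.97 and -0.95 against WT. Against WT the call of HB4 was lost with quantile normalization (-0.15, adjusted p = 0.295) and median centring (-0.11, adjusted p = 0.456), that of HAT1 with median centring (-0.12, adjusted p = 0.295), and that of PAR1 with quantile normalization (-0.19, adjusted p = 0.228). HFR1 had 4.69 and 4.54 RPKM in arp6vil1, 0.49 above arp6 (SE 0.08, adjusted p = 0.000392), and PIL1 had 0.668 and 0.762 RPKM, 0.31 above arp6 (SE 0.12, adjusted p = 0.0335). HFR1 stayed below WT, by -1.80, a call kept in every setting run. PIL1 was below WT by -0.77. Its call was lost with the length trend removed (-0.10, adjusted p = 0.458) and with median centring (0.07, adjusted p = 0.564).

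HB-2 and HAT2 went the other way. HB-2 had 2.06 and 2.11 RPKM in arp6vil1, against 2.88 and 3.12 RPKM in arp6 and 18.7 and 15.3 RPKM in WT, its lowest level in the 6 groups and 8.15-fold below WT (-2.54, SE 0.11, adjusted p = 2.27e-07). HAT2 had 3.60 and 3.70 RPKM in arp6vil1, against 10.04 and 9.84 RPKM in arp6 and 11.96 and 11.95 RPKM in WT, with a change of -1.23 against arp6 (SE 0.09, adjusted p = 6.17e-07) and -1.48 against WT (SE 0.09, adjusted p = 8.94e-07). The 2 arp6vil1 libraries were its lowest of the 12. HAT3 had 7.50 and 6.53 RPKM in arp6vil1, against 8.06 and 7.33 RPKM in arp6, which overlapped (-0.12, SE 0.09, adjusted p = 0.246), and both lay below WT. Its difference from arp6 turned and was called higher with quantile normalization (0.46, adjusted p = 0.000371) and median centring (0.35, adjusted p = 0.00753). The difference of HB-2 from arp6 (-0.37, SE 0.11, adjusted p = 0.00957) turned to 0.11 under quantile scaling and 0.10 when medians were centred, and was lost without replicate 2 of arp6 (adjusted p = 0.0579). That of PIL1 turned to -0.42 with quantile normalization and was lost without any 1 of the 4 libraries (adjusted p between 0.0639 and 0.155).

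Against arp6, 6 of the 9 were called higher and 2 lower, beside 41.1% and 38% of all genes tested and 23.3% and 58.9% of the 12070 nuclear coding genes. The median change was 0.49 over the 9, beside 0.12 over all genes and -0.53 over the 12070. Against WT, 8 of the 9 were called lower and 1 higher, beside 61.2% and 4.91% of all genes and 73.9% and 6.1% of the 12070. Their median was -0.97, beside -0.54 over all genes and -0.67 over the 12070, and 0.530% of the 12070 lay below HB-2, 2.86% below HFR1 and 96.9% below PAR2. Against vil1 the same 8 were called lower, from -0.32 (PIL1) to -2.59 (HB-2), and PAR2 higher, beside 50.8% and 7.16% of all genes. The call of PIL1 there was lost without replicate 2 of vil1 at 22 °C (adjusted p = 0.269) or either arp6vil1 library, and PIL1 was called higher there with median centring (0.42, adjusted p = 0.00586) and with the length trend removed (0.28, adjusted p = 0.0449). Also against vil1, HB4 was not called with quantile normalization (-0.09) or median centring (-0.12), nor HAT1 with median centring (-0.14). Scaling moves all of these values, since it moved the median of all genes against WT to 0.30 in arp6vil1 (median centring) and to -0.27 in arp6. With median centring PIL1 and PAR1 stood at 0.07 and 0.06 against WT in arp6vil1 and 5 of the 9 were called, while HB-2, HFR1, HAT2 and HAT3 were lower and PAR2 higher under each of the 3 other scalings. Root markers summed to 229 to 252 RPKM in arp6vil1 and shoot markers to 17314 to 19162 RPKM, and their part in the result was not tested.

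**Figure D4:**
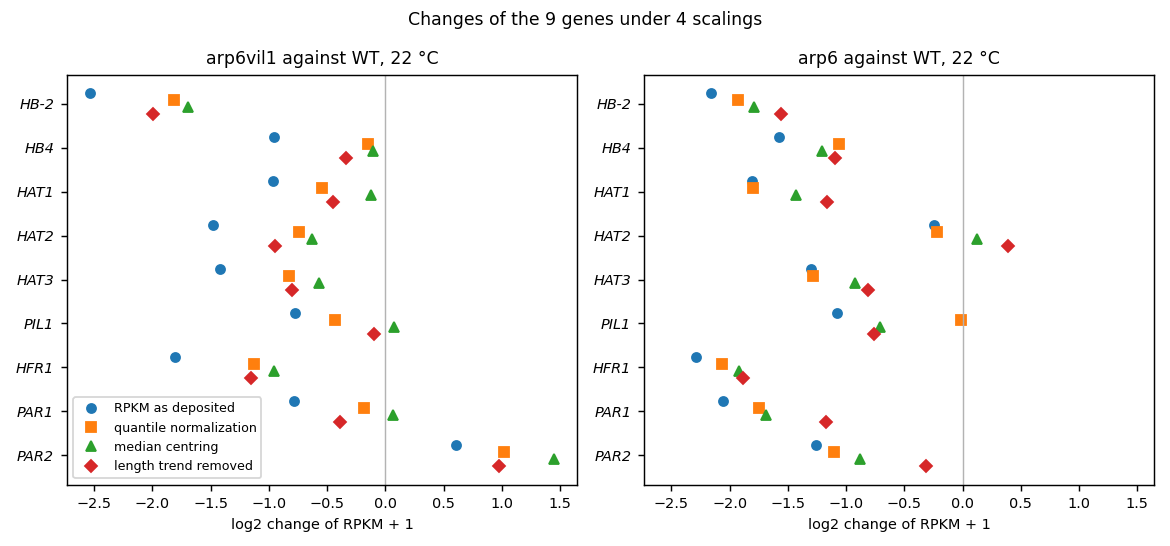
Log2 changes of RPKM + 1 of the 9 genes at 22 °C, for arp6vil1 (left) and arp6 (right) against WT, as deposited and under 3 other scalings, 1 symbol for each. HB-2 and HFR1 stay left of 0 in both panels under all 4, PAR2 stays right of 0 in arp6vil1, and HAT2 in arp6 lies on both sides of 0.

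The effect of the arp6 mutation was next compared between vil1 and WT plants, a contrast added after these values were seen. It differed at the threshold for 8 of the 9, beside 75.2% of all genes tested. For PAR2 the effect in vil1 minus that in WT was 1.84 (SE 0.17), for PAR1 0.99 (SE 0.21), for HAT1 0.93 (SE 0.13), for HFR1 0.88 (SE 0.12), for PIL1 0.76 (SE 0.17) and for HB4 0.73 (SE 0.14). It was negative for HAT2, -1.36 (SE 0.13), and HB-2, -0.43 (SE 0.16), and -0.17 (SE 0.13, adjusted p = 0.239) for HAT3. With quantile normalization the difference of HB-2 turned to 0.05 and that of PIL1 to -0.21, neither called, and that of HAT3 turned to 0.40 and was called (adjusted p = 0.00710).

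Ratios among the 9 within a library do not depend on its depth. The summed RPKM of the 5 HD-ZIP II genes was 31.2 ± 1.73 in arp6vil1 and 30.4 ± 0.45 in arp6, against 87.2 ± 5.48 in WT at 22 °C. As deposited, the sum was about as low in both mutants while its make-up differed. Unlike a ratio, the sum depends on any factor common to a library. With median centring the change of HAT3 in arp6vil1 against arp6 moved from -0.12 to 0.35. Quantile normalization and removal of the length trend act gene by gene, so they can move ratios and shares too. In that contrast quantile normalization moved PIL1 from 0.31 to -0.42 and HAT3 from -0.12 to 0.46. Ratios and shares were computed from RPKM as deposited only. HB-2 made up 6.70% ± 0.50 of the summed RPKM in arp6vil1 and 9.87% ± 0.69 in arp6, against 19.4% ± 1.57 in WT. HAT2 made up 11.7% ± 0.88 in arp6vil1 and 32.7% ± 0.0012 in arp6, against 13.7% ± 0.85 in WT. HAT1 made up 50.1% ± 0.53 in arp6vil1 and 27.3% ± 0.44 in arp6, against 36.2% ± 0.60 in WT. HB-2 therefore had its highest shares in WT and vil1, HAT2 in arp6 and HAT1 in arp6vil1. In the warm, the share of HAT3 was 20.7% ± 0.31 in vil1 at 27 °C, against 24.2% ± 0.42 at 22 °C, and 17.1% ± 0.49 in WT at 27 °C, against 23.4% ± 0.016 at 22 °C.

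Among the 4 HLH genes, PAR2 made up 58.8% ± 0.067 of the summed RPKM in arp6vil1 and 42.1% ± 2.74 in arp6, against 25.4% ± 2.38 in WT at 22 °C. HFR1 made up 15.2% ± 0.83 in arp6vil1 and 30.2% ± 1.19 in arp6, against 41.4% ± 3.49 in WT. The ratio of PAR2 to PAR1 was 2.40 and 2.60 in arp6vil1 and 1.47 and 2.15 in arp6, against 0.842 and 0.910 in WT at 22 °C. It was 1.00 and 1.14 in vil1 at 27 °C, against 0.713 and 0.724 in vil1 at 22 °C, and 1.15 and 1.18 in WT at 27 °C, against 0.842 and 0.910 at 22 °C. PAR2 thus exceeded PAR1 in both ARP6 mutants and in WT at 27 °C, and lay below it in both groups of WT and vil1 at 22 °C. In vil1 at 27 °C it was level with PAR1 in replicate 1 and above it in replicate 2. Between libraries, the levels of the 2 genes overlapped in both warm groups.

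**Figure D5:**
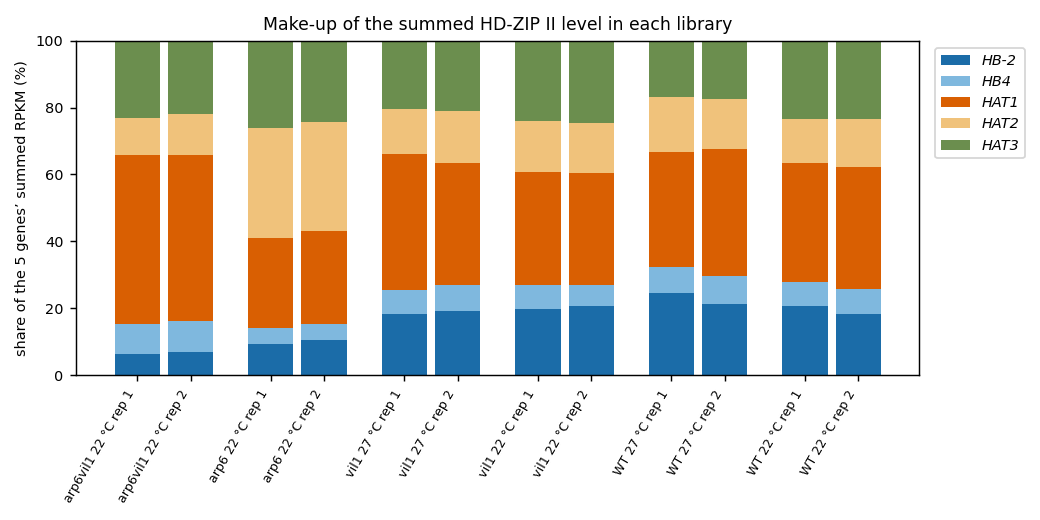
Stacked bars give the share of each HD-ZIP II gene, in percent, in the summed RPKM of the 5 genes, for each of the 12 libraries. The share of HB-2 (bottom) is smallest in arp6vil1 (mean 6.70%), and that of HAT2 is largest in arp6 (mean 32.7%).

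The rest of the pathway was read from lists of genes named by function, beside 16.9% of all genes called higher and 3.61% called lower in WT at 27 °C. At 27 °C in WT, 4 of 5 phytochromes were higher, with PHYB at 9.70 against 5.52 RPKM (0.70, SE 0.12, adjusted p = 0.00502), PHYC at 0.66 and PHYA at 0.53. These photoreceptors hold PIFs back in light. Of 7 PIFs, 2 were higher, PIF8 (0.46) and PIF1 (0.34), and none lower. Of 8 light-signalling regulators, 4 were higher, among them SPA1 (1.03) and COP1 (0.43), which form the complex that marks light regulators for breakdown. Under quantile normalization, median centring and removal of the length trend, 2 phytochromes, at most 1 PIF and at most 1 light-signalling regulator were still called higher. In vil1 none of the phytochromes or light-signalling regulators was called with temperature, and PIF8 (0.41) was the 1 PIF called, a call lost under all 3 other scalings.

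Of 13 shade-induced auxin and growth genes, 2 were higher and 3 lower in WT at 27 °C. SAUR68 and SAUR15, auxin-induced genes known as targets that PAR1 and PAR2 repress, had mean levels of 11.7 and 5.82 RPKM at 27 °C, against 21.0 and 10.1 RPKM at 22 °C (-0.80, adjusted p = 0.00301, and -0.70, adjusted p = 0.0260). YUC8, an enzyme of auxin synthesis, was 0.36 higher (adjusted p = 0.0266), a call lost under all 3 scalings. Of 12 tested of 14 HLH growth regulators, BEE3 (-0.77) and PRE6 (-0.47) were the 2 called lower, and BIM1 (0.57) was 1 of 2 called higher. That split depended on scaling, with 1 higher and 5 lower under quantile normalization, 0 and 6 after centring of medians and 0 and 5 once the trend with length was removed. None of the 5 other HD-ZIP II genes was called. Between vil1 and WT, PHYA was higher in vil1 at 22 °C (0.68, adjusted p = 0.0448) and IBH1, an HLH repressor of elongation, lower (-0.78, adjusted p = 0.0187). YUC8 was lower in vil1 at 27 °C, at 4.87 against 7.92 RPKM in WT (-0.60, adjusted p = 0.02004). The calls of PHYA under quantile normalization (adjusted p = 0.0541) and of YUC8 under median centring (adjusted p = 0.0556) were lost.

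The counts in arp6 are read beside 61.8% of all genes called lower there and 6466 of the 31454 called higher, and nothing particular to a list follows from them. All 5 other HD-ZIP II genes were lower in arp6 than in WT, led by HAT9 (1.24 against 7.57 RPKM, -1.93) and HAT22 (4.29 against 16.9 RPKM, -1.76), though quantile normalization left 2 lower and 1 higher. All 5 phytochromes were higher, with PHYB at 18.5 against 5.52 RPKM (1.58), and 4 or 5 of them were under each other scaling. Of the 13 auxin and growth genes, 10 were lower, among them SAUR68 (-1.70) and YUC8 (-1.31), and TAA1, which makes the precursor that YUC enzymes use, was higher (1.36). The 7 PIFs split, with 3 higher, PIF7 among them (0.87), and 3 lower, PIF8 among them (-1.44). In arp6vil1 all 5 phytochromes were lower than in arp6 under each scaling, with PHYB at 2.12 against 18.5 RPKM (-2.65). There 38% of all genes and 58.9% of the 12070 nuclear coding genes were called lower. With the length trend removed, the median change of the phytochromes shrank from -2.18 to -1.16 there. In arp6 against WT it shrank from 1.26 to 0.97.

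Over the 12 libraries, the genes whose pattern was most like that of HB-2 among 5597 with a symbol and a mean RPKM of 5 or more were ERF-1, PUP10 and ESE3, with Pearson's r of log2(RPKM + 1) of 0.995, 0.994 and 0.992. For HFR1 they were ORA47, MIR861 and RBL1 (0.994, 0.993 and 0.993), and for PIL1 RLP44, GSTU18 and ERF11 (0.972, 0.969 and 0.966). ERF-1, at 7.45 RPKM in arp6vil1 and 8.00 RPKM in arp6, against 86.2 RPKM in WT at 22 °C, and ORA47, at 3.76 and 0.962 RPKM, against 78.3 RPKM, are transcription factors of the AP2/ERF family, and both were low in the same 4 libraries as HB-2 and HFR1. Those libraries stand apart and share that with many genes. Over the 8 WT and vil1 libraries alone, none of these 9 names was among the 3 nearest genes of its own partner. GSTU18, named above for PIL1, was the nearest gene to HFR1 there (0.972).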

How the data were processed

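RNA-seq of 12 libraries in 6 groups of 2 was read from 1 table of RPKM values that the authors deposited, already scaled to depth and gene length. Per the submitters' processing notes, FastQC, HISAT2, Bowtie2, SAMtools, bedtools and edgeR were used on TAIR10, and which of them made the table, and with what strand setting, is not given in the sources used here. The 9 genes and the gene lists were chosen with earlier results of these data known. Multiplying RPKM by gene length less 1 base gave whole reads for at least 99.95% of values (tolerance 0.02 reads), from which depth was taken, at 45 to 4933 reads behind each value of the 9 genes, so counting error is largest for PIL1. Gene lengths and symbols came from a RefSeq table that matched 32548 of 34262 features, and none of the 9 overlapped another gene or shared its values with another row.

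Log2(RPKM + 1) was fitted with limma 3.58.1 in R 4.3.3, with 1 mean per group, no covariates and an empirical Bayes variance that follows the mean, keeping genes with 2 or more libraries at RPKM 1 or above. Calls used a Benjamini-Hochberg adjusted p under 0.05, two-sided. The model was tested on simulated data. Nuclear coding genes of mean RPKM 5 or more (12070) served as a second background, chosen after seeing the data, as were the contrasts averaged over genotype or temperature, the one comparing arp6 effects, and the model of WT and vil1 libraries alone. The alternatives were quantile normalization, median centring, removal of a length trend (lowess, span 0.3), a pseudocount of 0.1 or 5, no filter, mean RPKM 5 or more, a model of the compared groups alone, a block for the replicate number, voom on recovered reads (29871 genes) and leaving out each library. All 9 genes entered every comparison and are counted there, with values for those described, and a list is given by its counts and up to 3 called genes with the largest change among those whose mean reached RPKM 5 in either group. The 3 genes most like HB-2, PIL1 and HFR1 were those of highest Pearson's r. Replicate numbers were checked for pairing over 15 pairs of groups. Correlations of their deviations ran from -0.25 to 0.22, the highest between WT at 22 °C and WT at 27 °C, and the numbers were not taken to pair libraries.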

Additional observations from a re-analysis of the deposited data

Results flagged for a closer look

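The effect of the arp6 mutation at 22 °C differed between vil1 plants and WT plants, by a limma test of the difference itself, for 8 of the 9 genes, beside 75.2% of all genes tested. The effect in vil1 minus that in WT, on the log2(RPKM + 1) scale, was 1.84 for PAR2 (adjusted p = 5.47e-06), 0.99 for PAR1 (adjusted p = 0.00172), 0.93 for HAT1 (adjusted p = 0.000127), 0.88 for HFR1 (adjusted p = 8.73e-05), 0.76 for PIL1 (adjusted p = 0.00201) and 0.73 for HB4 (adjusted p = 0.00106). It was -1.36 for HAT2 (adjusted p = 6.76e-06) and -0.43 for HB-2 (adjusted p = 0.0276). The call of HB-2 was lost in 9 of 22 alternative settings, among them quantile normalization (0.048, adjusted p = 0.830) and 6 in which 1 library was left out. That of PAR1 was lost with the length trend removed (0.27, adjusted p = 0.196) and that of PIL1 with quantile normalization (-0.21, adjusted p = 0.304), while those of HAT1, HFR1, HB4, HAT2 and PAR2 held in every setting run.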

How the results depend on the processing

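Of the 9 genes, those below changed direction under another setting, as log2 changes. With quantile normalization they were, for 27 against 22 °C, HB4 (-0.039), HAT1 (-0.046) and PIL1 (-0.035) in WT and HB4 (-0.054) and HFR1 (-0.049) in vil1, for arp6vil1 against arp6, HB-2 (0.11), HAT3 (0.46) and PIL1 (-0.42), and for the arp6 effect in vil1 minus that in WT, HB-2 (0.048), HAT3 (0.40) and PIL1 (-0.21). With median centring they were, for temperature, HAT1 (-0.15) and PIL1 (-0.18) in WT and HB4 (-0.050) and HFR1 (-0.090) in vil1, for vil1 against WT at 22 °C, HB4 (0.011) and HAT1 (0.023), for arp6 against WT, HAT2 (0.13), for arp6vil1 against arp6, HB-2 (0.099) and HAT3 (0.35), for arp6vil1 against WT, PIL1 (0.073) and PAR1 (0.062), for arp6vil1 against vil1, PIL1 (0.42), and for the difference of arp6 effects, HAT3 (0.19). With the length trend removed they were, for temperature, HAT1 (-0.0081) and PIL1 (-0.14) in WT, HB4 (-0.011) and HFR1 (-0.054) in vil1 and the difference of PAR1 (-0.057), for vil1 against WT at 22 °C, HB4 (0.024) and HAT1 (0.079), for arp6 against WT, HAT2 (0.39), and in arp6vil1, HAT3 against arp6 (0.015) and PIL1 against vil1 (0.28). Leaving out 1 library in turn gave, for WT with temperature, -0.019 to 0.090 for HAT1, -0.027 to 0.043 for PIL1 and -0.11 to 0.033 for HFR1; for vil1 with temperature, -0.024 to 0.23 for HB4 and -0.15 to 0.0050 for HAT2; for the difference of these responses, -0.21 to 0.036 for HB4 and -0.093 to 0.21 for PAR1; for vil1 against WT at 22 °C, -0.083 to 0.19 for HB-2, -0.23 to 0.023 for HB4, -0.0078 to 0.12 for HAT3 and -0.081 to 0.12 for PAR2; and for HAT1 at 27 °C, -0.052 to 0.13. The cause was not tested.

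The number of the 9 genes called for WT with temperature was 1 with only its groups and 1 to 4 without 1 library, against 3. For vil1 with temperature it was 2 with quantile normalization and 0 to 1 without 1 library, against 1. For vil1 against WT at 22 °C it was 0 with median centring, 0 with only its groups, 0 with the replicate block, 0 with WT and vil1 libraries alone, 2 with a pseudocount of 5, 2 with voom and 0 to 2 without 1 library, against 1. For arp6vil1 against WT it was 5 with median centring, against 9. For vil1 against WT averaged over temperature it was 0 to 4 over all settings, against 2. In the other comparisons the number stayed within 1.5 times the one reported. With the replicate block, PIL1 in arp6vil1 against vil1 was also lost (adjusted p = 0.0572). Of 15 pairs of groups only 1 had deviations correlated above 0.1, that of WT at 22 °C and WT at 27 °C (0.22). PIL1 has no value at a mean RPKM of 5 or more.

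Over all genes, those called higher and lower with temperature in WT were 5328 and 1137, against 2055 and 2528 after quantile normalization, 1186 and 3160 after centring of medians, 1814 and 1877 with the length trend removed and 1015 and 275 with only its groups. In arp6 they were 6466 and 19423, against 9783 and 9094, 9854 and 14935, and 9804 and 9832 under the first 3 of these, the other scalings. In arp6vil1 against WT they were 1543 and 19245, against 7303 and 8137, 14258 and 4466, and 7642 and 7636. For vil1 against WT at 22 °C they were 677 and 614, against 30 and 27 with only its groups, 82 and 74 with WT and vil1 libraries alone, 360 and 259 with the block, 1452 and 1265 with voom, 2754 and 6187 without replicate 1 of WT at 22 °C, 62 and 31 without replicate 2 of it, and 20 and 10 or 17 and 20 without replicate 1 or 2 of vil1 at 22 °C. With temperature in vil1 they were 610 and 145, against 1576 and 512 with only its groups, 379 and 332, 266 and 363, and 391 and 401 under those same 3 scalings. For vil1 against WT at 27 °C they were 106 and 184, against 47 and 73 with only its groups, 180 and 296 with voom and 206 and 148, 275 and 114, and 336 and 156 under the 3 scalings, and at 22 °C the scalings gave 800 and 710, 860 and 364, and 1185 and 321. In arp6vil1 they were 12917 and 11964 against arp6, where centring gave 18549 and 8342, and 2251 and 15992 against vil1, where the scalings gave 8127 and 9035, 15345 and 5841, and 8310 and 8504. Leaving out 1 library also moved the counts with temperature, to between 1668 and 394 (without replicate 1 of WT at 27 °C) and 4957 and 1889 in WT, and to as few as 124 and 25 (without replicate 1 of vil1 at 22 °C) in vil1. With 45 to 367 reads a library, PIL1 had the fewest reads of the 9 genes.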

Other observations

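The ratio of HFR1 to PIL1, both HLH restraints on shade growth, ranged from 5.96 to 13.8 over the 12 libraries. It was 7.02 and 5.96 in arp6vil1 and 8.93 and 6.90 in arp6, against 10.2 and 9.11 in WT at 22 °C. It was 13.8 and 11.0 in vil1 at 22 °C, its highest pair, against those same WT values, and 9.83 and 10.3 in vil1 at 27 °C, against 8.75 and 9.91 in WT at 27 °C. The ratio of HAT2 to HB-2 was 1.75 and 1.75 in arp6vil1 and 3.48 and 3.15 in arp6, against 0.639 and 0.782 in WT at 22 °C, so HAT2 exceeded HB-2 in all 4 libraries of the ARP6 mutants. In the 8 WT and vil1 libraries it was at most 0.815. That of HB-2 to HAT1 was 0.126 and 0.142 in arp6vil1 and 0.347 and 0.375 in arp6, against 0.574 and 0.501 in WT at 22 °C, and its lowest value outside the ARP6 mutants was 0.450.

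Among the lists in arp6vil1 against arp6, where 41.1% of all genes were called higher and 38% lower, 8 of 13 auxin and growth genes were higher, led by SAUR68 (15.2 against 5.77 RPKM), and 1 was lower, TAA1 (3.73 against 9.55 RPKM), while median centring gave 12 higher and 1 lower. Of the 7 PIFs, 6 were lower, led by PIF7 (2.53 against 15.5 RPKM), and PIF8 was higher (10.6 against 4.51 RPKM). Of 12 HLH growth regulators tested, 4 were higher and 3 lower (7 and 3 after quantile normalization, 8 and 3 after centring of medians, 4 and 5 once the length trend was removed), with BIM1 at 1.71 against 14.8 RPKM and BEE2 at 2.24 against 9.81 RPKM. Against WT, all 7 PIFs were lower in arp6vil1, beside 61.2% of all genes and 73.9% of the 12070 nuclear coding genes, with PIF4 at 10.2 against 31.6 RPKM and PIF5 at 7.56 against 27.08 RPKM, and with quantile, median-centred and length-adjusted values 6, 5 and 5 PIFs were called lower and 0, 1 and 1 higher. HY5, the transcription factor at the centre of light signalling, was at 4.70 RPKM in arp6vil1, against 14.1 RPKM in WT, and IBH1 was at 11.5 RPKM in arp6, against 28.0 RPKM in WT.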
